A study of Mus musculus with 10 samples.

Results

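Mouse left ventricular tissue under pressure overload was described on its own, from the 5 libraries titled TAC placebo. They are 5 of the 10 libraries of the series, chosen by title, and the other 5, from hearts given the epidermal growth factor receptor inhibitor osimertinib, were not analysed here. TAC is transverse aortic constriction, a surgical narrowing of the aortic arch that makes the left ventricle pump against a raised pressure. The placebo libraries carry the treatment label vehicle, the tissue label heart and left ventricle, and a cell type label that covers all cells of the heart. Every heart of the series had the constriction, so no unloaded ventricle was measured, and strain, age, sex and time after surgery are not given in the labels used here. Nor do the labels say that each library came from a separate animal, so the spread between libraries may be in part technical. In bulk tissue, fewer cells of a type and less RNA per cell cannot be told apart.

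An adult mouse ventricle is built mostly of cardiomyocytes by mass, and most of its contractile genes belong to families whose members are used in different muscles or at different ages. The alpha and beta myosin heavy chains, cardiac and skeletal actin, and the ventricular and atrial light chains are such pairs. Under pressure load the ventricle is known to turn up members used before birth, among them Myh7 and Acta1, together with the natriuretic peptides Nppa and Nppb. The ratio of members within a family can be read inside a single library, with no scaling between libraries.

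The striated myosin heavy chains carry this arrangement in their introns too, because 3 of the genes host a microRNA. The mature sequences, from RefSeq on GRCm38.p6, are shown because they mark the 3 heavy chain genes that were detected above trace levels. Capitals mark the seed, bases 2 to 8.
mmu-miR-208a-3p, in Myh6 (chr14:54949072-54949093, minus strand): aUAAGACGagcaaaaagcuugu
mmu-miR-208b-3p, in Myh7 (chr14:54975710-54975731, minus strand): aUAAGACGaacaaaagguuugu
mmu-miR-499-5p, in Myh7b (chr2:155622893-155622913, plus strand): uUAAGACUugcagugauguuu
The seeds from Myh6 and Myh7 are identical over 7 bases, and all 3 seeds share 6 of 7 bases. Mature microRNAs are not captured by poly(A) selection, and only the host genes were measured.

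Depth lay between 15863265 and 21309296 reads per library, of which 51.2% to 83.0% fell on mitochondrial genes and their near-identical copies on chromosome 1. After their removal 3622404 to 8441942 nuclear reads were left, the fewest in library 5, where only 17.0% of reads were nuclear. All values below are counts of nuclear reads on the CPM scale after a median-ratio rescaling, called rescaled CPM, and 5 values in a row stand in the order of libraries 1 to 5. At this depth 1 read was worth 0.121 to 0.262 rescaled CPM, and 0 reads allow a level of up to 0.364 to 0.785 (3 reads, counting error only). Over 11171 nuclear genes with a mean of at least 5 rescaled CPM, libraries 1 and 2 (median absolute log2 difference 0.18) and libraries 3 and 4 (0.18) were the closest pairs, and libraries 3 and 5 (0.33) the farthest.

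3 measured facts about single libraries bear on what follows. Xist, the long noncoding RNA of the inactive X chromosome, stood at 0, 0, 0.131, 0.170 and 379, and the Y-linked Ddx3y at 76.1, 95.8, 83.8, 69.3 and 0. Library 5 thus differed from the other 4 in sex-linked transcripts, and the Y-linked Uty, Kdm5d and Eif2s3y were at 0 in it alone, which allows up to 0.785. Several transcripts of atrial muscle, among them Myl7, Myl4 and Sln given below, were high in libraries 1 and 5 and near 0 in libraries 3 and 4. All 5 libraries carry the left ventricle label. Library 4 held 41358 rescaled CPM of Gm42418, a noncoding gene on chromosome 17 (39846958 to 39848788) that overlaps an annotated ribosomal RNA gene on the other strand over 1831 bases, against 4846 to 12294 in the rest.

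All 5 markers of the label were detected in all 5 libraries. With no unloaded ventricle measured, their detection cannot test for pressure overload. Myh6, the fast alpha heavy chain of the adult mouse heart, was at 17079.9, 21905, 28620.2, 34499 and 23262 rescaled CPM, lowest in library 1 and highest in library 4. Its slow partner Myh7 was at 1315, 558, 1379.8, 428 and 825, high in libraries 1 and 3 and low in libraries 2 and 4. Nppa, the atrial natriuretic peptide, was at 2072, 1714, 2792, 1269 and 1121, and Nppb, the brain-type peptide, at 359.8, 323, 1562, 371 and 151. Skeletal actin Acta1 was at 749.7, 387, 5582, 500.1 and 455. Library 3 was the highest for 4 of the 5 markers, and for Acta1 and Nppb it lay far above the other 4, which covered 387 to 749.7 and 151 to 371. Of the ventricular markers, the light chain gene Myl2 (8798 ± 4384, SD, n = 5) and troponin I gene Tnni3 (6185 ± 2829) were among the highest nuclear genes, and the ventricular factor Irx4 was present at 52.8 ± 12.0.

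The highest nuclear genes were those of the contractile apparatus and of oxygen and energy supply. Myh6 led by rescaled CPM in 4 of 5 libraries (mean 25073 ± 6683) and held 2.46% ± 0.409 of nuclear reads on average, while in library 4 Gm42418 stood above it. After these came Mb, the oxygen-binding myoglobin, at 10773 ± 6655, then Myl2, the troponin T gene Tnnt2 (6305 ± 1856), Tnni3, the tropomyosin gene Tpm1 (6126 ± 2623) and the nuclear noncoding RNA Neat1 (5743 ± 1836). The 10 genes with the highest means held 5.80% of the nuclear reads in library 1 and 13.5% in library 4, and Gm42418 is one of them. The first 1000 held 50.3% to 59.1%.

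CPM counts reads and so favours long transcripts. The giant sarcomere gene Ttn, for instance, ranked 13 among nuclear genes by CPM (3467 ± 319.6) with a transcript of 106824 bases. Per kilobase of the longest transcript, Myl2 (9897 ± 4931 CPM per kb) and Mb (9758 ± 6028) stood first, followed, leaving Gm42418 aside, by Tnni3 (6782 ± 3102), Tnnt2 (5255 ± 1547), Myl3 (5086 ± 3124) and Myh6 (4102 ± 1093). Myl2 and Mb do not differ beyond their spread, nor do Tnnt2 and Myl3. Other genes that ranked high per kb were the troponin C gene Tnnc1 (3391 ± 1974), the lipid carrier Fabp4 (3080.2 ± 481), the muscle cytochrome oxidase subunit Cox6a2 (2966 ± 1504) and the thymosin gene Tmsb4x (2079.8 ± 178). Nppa was among the 25 highest per kb (2073 ± 777), whereas Nppb was not (708 ± 731 with the largest value in library 3).

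**Figure D1:**
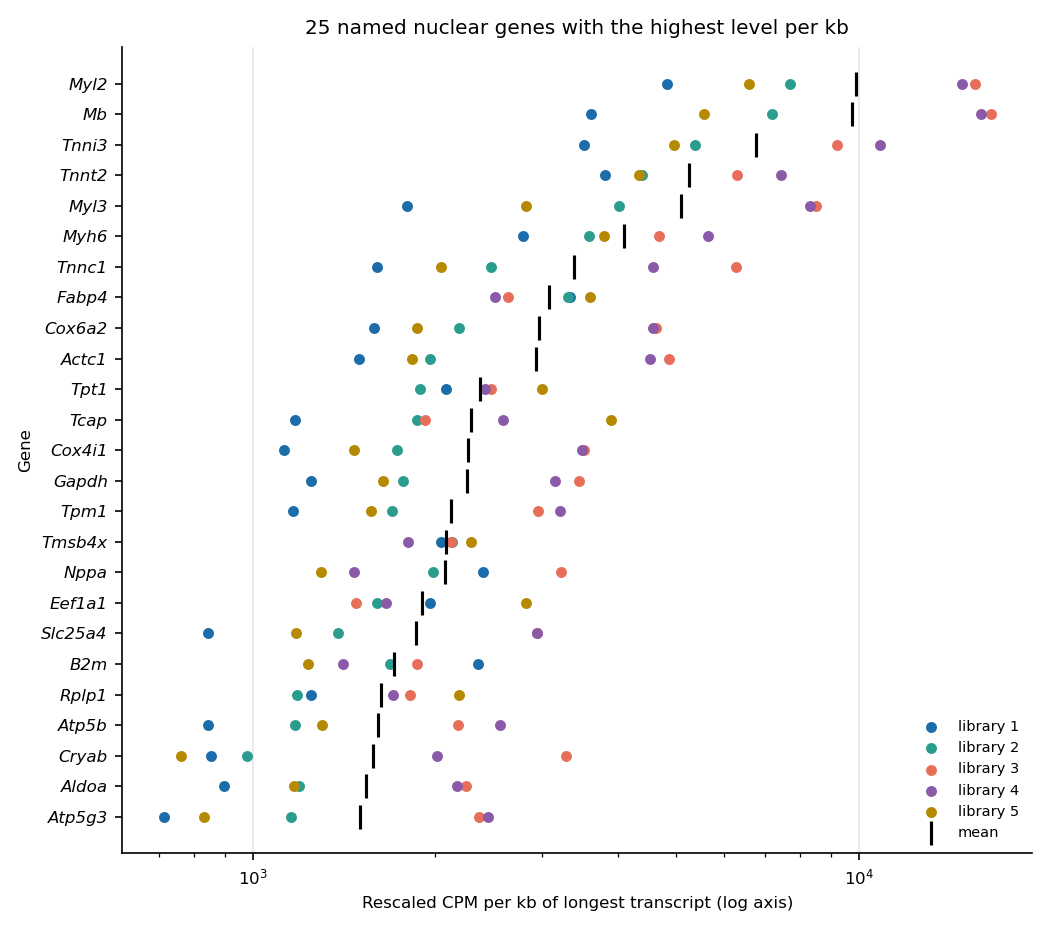
Rescaled CPM per kb of the 25 named nuclear genes with the highest mean, on a log axis, with 1 point per placebo library and a bar for the mean. For most sarcomere and energy genes libraries 3 and 4 lie to the right and library 1 to the left, while Fabp4 and Tmsb4x are close together.

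Ratios within 76 gene families were computed per kilobase, so that members can be compared, and 73 families summed to at least 20 rescaled CPM. In 59 of the 73 the leading member was above the second in all 5 libraries, and in 18 the leader held more than 90% of its family on average. An exact two-sided sign-flip permutation test over 5 libraries cannot go below p = 0.0625 (0.0773 after Benjamini-Hochberg adjustment over families), so no ratio could pass 0.05. The counts of libraries and the SD between them are given instead, and the families below are in the order of their place in the cell.

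**Figure D2:**
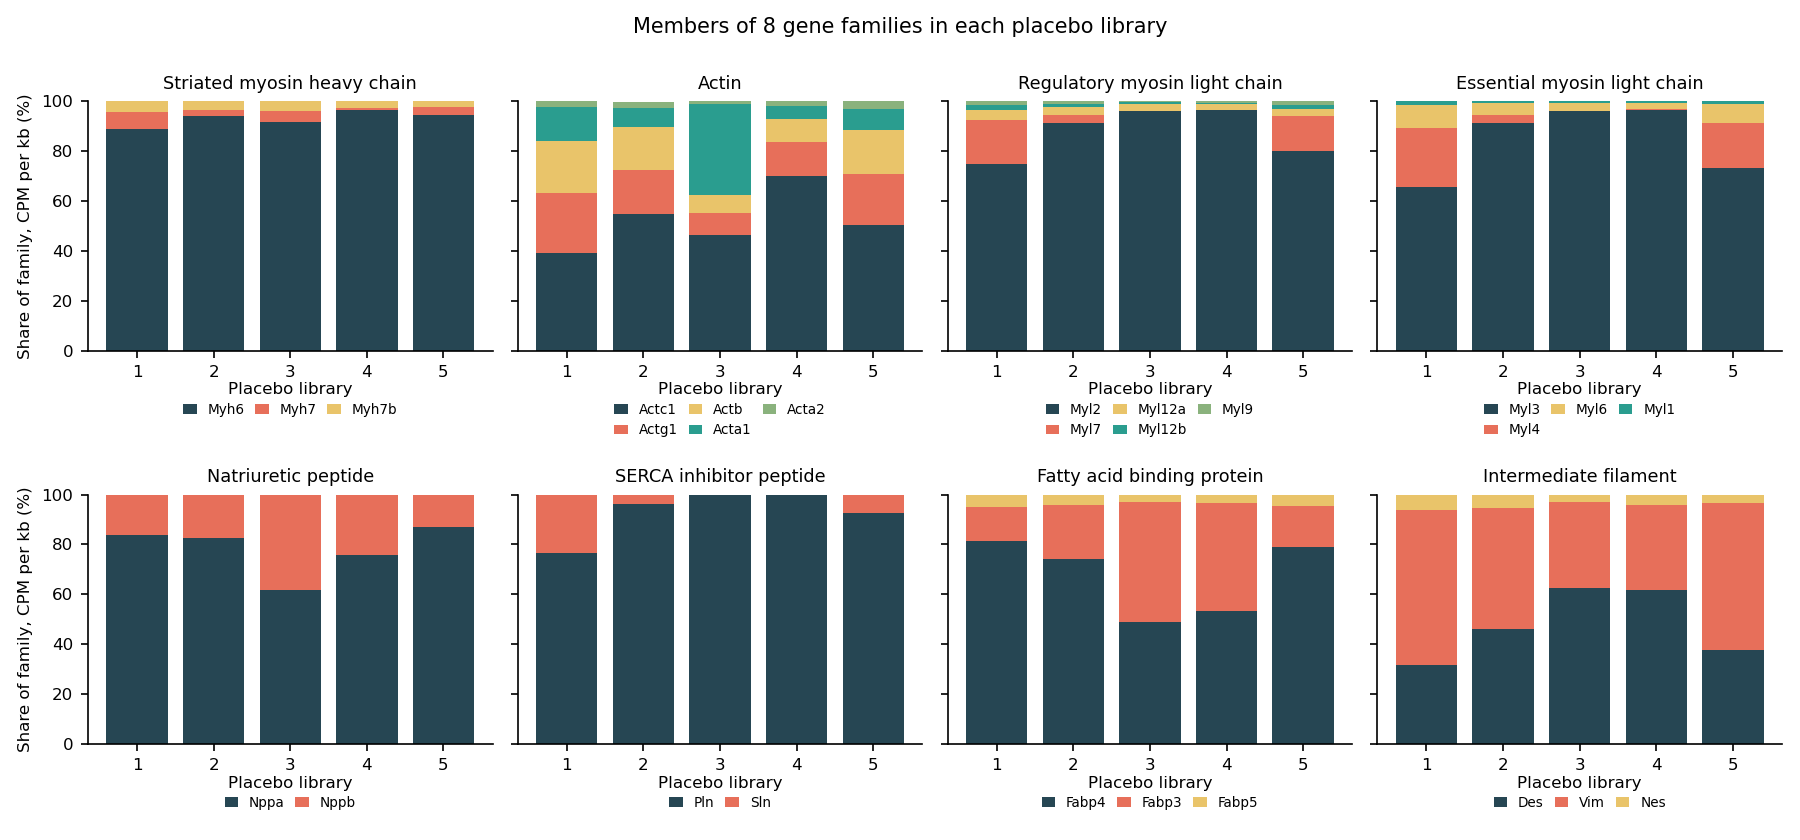
Share of each family, in percent of CPM per kb, held by its members in each of the 5 placebo libraries, for 8 families (only members that reach 1% in some library are drawn). Acta1 and Nppb take their largest shares in library 3, and Myl7, Myl4 and Sln are visible in libraries 1, 2 and 5 but not in libraries 3 and 4.

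Among the striated myosin heavy chains Myh6 held 89.0, 94.0, 91.7, 96.3 and 94.5% of the family (mean 93.1% ± 2.85, SD, n = 5). Myh7 held 6.72, 2.35, 4.34, 1.17 and 3.29%, and the third heavy chain, Myh7b, 4.31, 3.60, 3.95, 2.51 and 2.16%. The alpha chain was therefore the main heavy chain transcript in all 5 libraries, with 13.2 times the Myh7 level in library 1 and 82.0 times in library 4. Myh7 and Myh7b were close on average (3.58% ± 2.11 against 3.30% ± 0.929), and which of them was second differed between libraries. The skeletal and developmental chains Myh1, Myh2, Myh3, Myh4 and Myh8 were each at 0.00127% of the family or less in every library. Of the heavy chains outside striated muscle, the nonmuscle Myh9 led with 64.3% ± 5.11 over the smooth muscle Myh11 with 14.2% ± 3.57.

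In the actin family the cardiac and the skeletal gene moved apart and together from library to library. Cardiac actin Actc1 led with 39.1, 54.9, 46.2, 69.9 and 50.3% of the 6 actins, and skeletal actin Acta1 held 13.5, 7.49, 36.7, 5.35 and 8.65%. In library 3 Acta1 came within a factor of 1.26 of Actc1, whereas elsewhere Actc1 was 2.89 to 13.1 times higher. The cytoskeletal Actb (1548, 1194, 1442, 1163 and 1227 rescaled CPM) and smooth muscle Acta2 (180.1, 196, 189, 219 and 215) varied little. Both sarcomeric actin genes have a serum response element core, the CArG box, close to the start. The 250 bases before the start are shown because the pair differs in how steady it was between libraries while sharing this element, in capitals (RefSeq promoters, GRCm38.p6).
Acta1 (chr8:123894776-123895025, minus strand): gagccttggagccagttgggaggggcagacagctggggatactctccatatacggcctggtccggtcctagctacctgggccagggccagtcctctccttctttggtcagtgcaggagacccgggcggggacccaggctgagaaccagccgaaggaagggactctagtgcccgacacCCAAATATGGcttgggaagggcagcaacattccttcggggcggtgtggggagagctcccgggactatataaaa
Actc1 (chr2:114052876-114053125, minus strand): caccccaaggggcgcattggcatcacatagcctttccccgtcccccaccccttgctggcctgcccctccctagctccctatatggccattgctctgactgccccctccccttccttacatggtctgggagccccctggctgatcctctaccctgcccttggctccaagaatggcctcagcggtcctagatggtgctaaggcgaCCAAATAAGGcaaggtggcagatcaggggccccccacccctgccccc
The element begins 73 bases before the Acta1 start and 47 bases before the Actc1 start, and 1.47% of 32851 windows of the same length hold a CArG box on either strand. A match describes the letters only and does not show that a factor binds.

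Of the contractile families, the 2 light chain families had the largest SD of the ratio between their first members (log2 7.08 ± 5.49 and 5.91 ± 4.46). Ventricular Myl2 held 74.9, 91.4, 96.0, 96.7 and 80.1% of the regulatory chains, and atrial Myl7 17.5, 2.88, 0.0233, 0 and 13.9%. Likewise ventricular Myl3 held 65.7, 91.3, 96.1, 96.7 and 73.1% of the essential chains, and atrial Myl4 23.5, 3.09, 0.0455, 0.0713 and 18.1%. Libraries 1 and 5 thus had an atrial light chain at 13.9% to 23.5% of either family, library 2 at 2.88% and 3.09%, and libraries 3 and 4 at 0.0713% or less. Myl7 itself was at 666, 143, 2.23, 0 and 677 rescaled CPM, and the 0 of library 4 allows up to 0.509. Leaving aside the atrial chains, the nonmuscle chains Myl12a (525, 545, 901, 615 and 497) and Myl6 (423, 352, 452, 382 and 484) were present in every library.

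Thin filament regulators were close to single-member families. Tnni3 held 99.9% ± 0.0792 of troponin I, Tnnt2 99.6% ± 0.0994 of troponin T, and Tnnc1 all but 0.0237% ± 0.0189 of troponin C. The fetal slow troponin I, Tnni1, was at 4.75, 1.21, 0.393, 0.170 and 11.2 rescaled CPM, highest in libraries 5 and 1. Tpm1 led tropomyosin with 80.6% ± 7.30, before the nonmuscle Tpm4 with 12.7% ± 4.72. In the thick filament and M band, Mybpc3 held 98.9% ± 0.322 of the myosin binding proteins C and Myom1 65.5% ± 6.87 of the myomesins. The Z-disc proteins were led by Actn2 (79.2% ± 7.23 of alpha-actinin) and Myoz2 (99.9% ± 0.0905 of myozenin). The stretch-responsive ankyrin repeat gene Ankrd1 held 65.7, 62.6, 62.5, 51.1 and 58.6% of its family over Ankrd23, and Ankrd2, of slow skeletal muscle, at most 0.247%. Desmin (Des) and vimentin (Vim), the intermediate filaments of muscle and of mesenchymal and endothelial cells, were level on average (48.0% ± 13.9 and 47.5% ± 13.1). Des led in libraries 3 and 4 (62.4% and 61.7%) and Vim in libraries 1, 2 and 5, so this order rests on which libraries are averaged, and without library 3 or 4 the mean log2 ratio changes sign.

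In calcium handling the pump, the release channel and the store protein were each almost all of 1 isoform. The calcium pump Atp2a2 (SERCA2) held 98.2% ± 0.740 of its family, the release channel Ryr2 98.5% ± 1.04 and calsequestrin Casq2, the calcium store of the sarcoplasmic reticulum, 94.9% ± 1.41. The pump is restrained by 2 small peptides, phospholamban (Pln) and sarcolipin (Sln), and Sln is known as the atrial one. Pln was at 959, 1712, 2113, 2577 and 1533 rescaled CPM and Sln at 166, 36.7, 0.262, 0 and 69.1. The 5 libraries stood in the opposite order for the 2 genes. Sln held 23.4% of the pair in library 1, 7.39% in library 5 and 3.66% in library 2, with 0.0219% in library 3 and 0 in library 4. The plasma membrane pump Atp2b4 (53.3% ± 6.46) and Atp2b1 (45.3% ± 7.06), by contrast, changed order between libraries.

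At the membrane, the L-type channel Cacna1c held 62.9% ± 13.3 of the calcium channel subunits, with the T-type Cacna1g next (96.7, 70.8, 41.5, 68.1 and 173 rescaled CPM, highest in library 5). Gja1, the connexin of ventricular muscle, held 59.9% ± 6.92 of its family, and Gja5, of atria and the conduction system, only 4.33% ± 1.04. Among the inward rectifiers the vascular subunit Kcnj8 led with 54.1% ± 9.69, ahead of the cardiomyocyte subunit Kcnj2 with 12.5% ± 3.67. The sodium-calcium exchangers and the beta and alpha-1 adrenergic receptors summed to less than 20 rescaled CPM and were not described.

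Several enzymes of energy supply also showed the muscle form. Cpt1b, which admits long-chain fatty acids to the mitochondrion, held 94.0% ± 2.12 of its family, and Slc25a4, which exchanges ADP and ATP across the inner membrane, 91.1% ± 2.65. Cytochrome oxidase used the muscle forms Cox6a2 (89.6% ± 3.53) and Cox8b (72.8% ± 7.88), and Cox4i1 (98.5% ± 0.400), which is not confined to muscle. For subunit 7A the muscle form Cox7a1 stood at 48.8% ± 7.45 and Cox7a2 at 32.6% ± 1.63. In glycolysis Pfkm (73.2% ± 5.72), Aldoa, Eno3 (76.3% ± 9.33) and Pgam2 (95.0% ± 2.20) led in all 5 libraries. Ldhb, the lactate-oxidising heart form, held 61.6% ± 7.96 against 33.8% ± 7.13 for Ldha.

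Some families were led by a member that is not the textbook heart form. Fabp4, of capillary endothelium and fat, exceeded the cardiomyocyte form Fabp3 in all 5 libraries, narrowly in library 3 (49.0% against 47.8%) and widely in library 1 (81.5% against 13.6%). With the length of all exons of the gene in place of the longest transcript, this order turned over. Fabp4 held steady at 2994, 2970.2, 2359.9, 2246 and 3229.6, and Fabp3 moved, at 459, 800.1, 2117, 1684 and 623. Pparg (58.1% ± 4.22) and Ppard (41.0% ± 4.52) shared the PPAR family, and Ppara, the fatty acid sensor known from cardiomyocytes, held 0.872% ± 0.375 (0.973, 0.606, 0.916, 2.55 and 0.785 rescaled CPM). Without division by length Ppard was ahead of Pparg on average. Esrra held 96.2% ± 1.31 of the oestrogen-related receptors.

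Peptide hormones and receptors were led by Nppa, with 83.8, 82.7, 61.7, 75.6 and 87.0% of the natriuretic peptides. Nppb held 16.1, 17.3, 38.3, 24.4 and 13.0%. The pair lie next to each other on chromosome 4, 13516 bases apart on the same strand. Nppa exceeded Nppb in 5 of 5 libraries by a log2 ratio of 1.94 ± 0.81 (SD). The share of Nppb was largest in library 3 and smallest in library 5. Nppa is also on the list of atrial markers. Per kb it was 5.19, 4.79 and 6.70 times Nppb in libraries 1, 2 and 5, which held atrial light chains. In libraries 3 and 4 it was 1.61 and 3.09 times Nppb, although Nppa itself was highest in library 3. Whether atrial transcripts bear on this ratio was not tested. Of the receptors, Npr2 held 58.1% ± 1.87 and Npr1 39.2% ± 2.41, and this ratio was among the steadiest (log2 0.57 ± 0.13). The ErbB receptors, the family of the drug target in the rest of the series, were low. Erbb2 was at 37.5, 29.6, 22.5, 25.6 and 41.1 rescaled CPM (64.5% ± 6.88 of the family per kb), Erbb3 at 16.4, 13.6, 10.1, 14.9 and 11.2, Egfr at 12.3, 9.21, 12.0, 9.51 and 6.02 and Erbb4 at 1.70, 3.39, 1.57, 2.55 and 1.57. Erbb2 led in each library.

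Among regulators of transcription, Mef2d led Mef2a by a log2 ratio of 0.41 ± 0.07, and Gata2, of endothelial and blood cells, led Gata4, of cardiomyocytes, by 0.47 ± 0.17. Gata4 itself was at 58.3, 52.0, 57.7, 59.9 and 62.5 rescaled CPM. Histone deacetylases, enzymes that remove acetyl groups from histones and other proteins, were led by Hdac3 (41.8% ± 4.32) and Hdac1 (33.9% ± 3.62) in class I, in that order in 4 of 5 libraries, and by Hdac7 (51.2% ± 3.68) and Hdac5 (42.7% ± 3.37) in class IIa. Hdac5 was at 270.0, 268, 217, 279.6 and 321 rescaled CPM and Hdac7 at 328, 302, 249, 252 and 281. The PGC-1 coactivator gene Pprc1 led Ppargc1a in 4 of 5 libraries by 0.95 ± 0.81 on the log2 scale, a wider spread than the others. Akt1 held 68.7% ± 1.35 of the Akt kinases.

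In the matrix, Col3a1 held 36.7% ± 2.64 of the fibrillar collagens and led Col1a2 in 5 of 5 libraries (log2 ratio 1.11 ± 0.22). In basement membrane collagen, Col4a1 was at 1969, 1776, 1783, 1409 and 988 rescaled CPM and Col4a2 at 1572, 1437, 1417, 1219.9 and 927, both lowest in library 5. They are subunits of 1 trimer and kept a log2 ratio of 0.22 ± 0.10. Lama5 (53.6% ± 5.81) and Lama4 (36.9% ± 4.99) led the laminin alpha chains, and Tgfb1 (76.6% ± 3.81) the TGF-beta ligands. Among chaperones, Hspa8, the constitutive member, held 94.8% ± 1.16 of HSP70 and Hsp90ab1 89.7% ± 2.00 of cytosolic HSP90. Cryab (42.6% ± 2.70) and Hspb1 (25.2% ± 5.65) led the small heat shock proteins.

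Spread between the libraries was measured as the SD over 5 of log2(rescaled CPM + 0.5). It was 0.25 at the median of 11171 genes, against 0.098 from the counting of reads, and 107 genes had an SD of 1 or more and were called variable. That is 0.958% of genes, and all counts of variable genes below stand against it. Of the 107, 82 are protein coding and 14 are pseudogenes. Library 5 was the highest for 39 of them and the lowest for 34, and over the other 4 libraries 73 of the 107 still had an SD of 1 or more. When the scaling and the filter on means were also redone without library 5, 65 of the 107 were called.

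**Figure D3:**
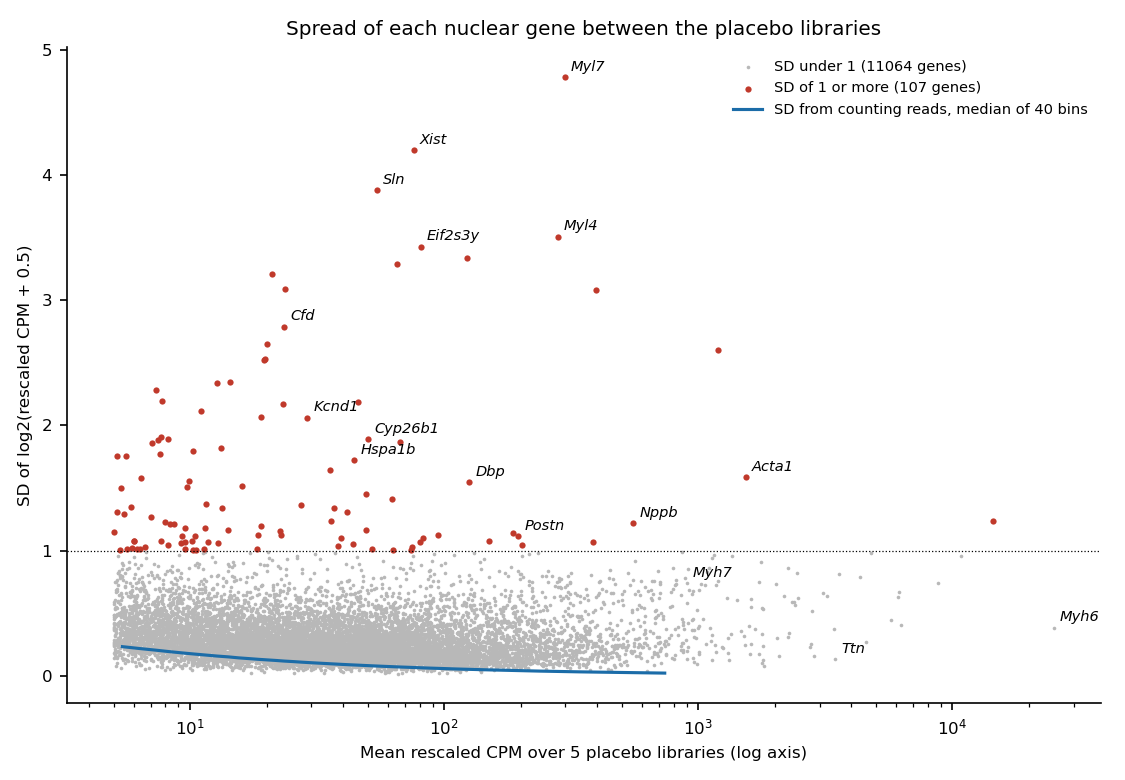
SD of log2(rescaled CPM + 0.5) over the 5 placebo libraries against the mean rescaled CPM (log axis) for 11171 nuclear genes, with the 107 genes of SD 1 or more in red and the median SD from read counting as a line. Atrial genes (Myl7, Sln, Myl4) and sex-linked genes (Xist, Eif2s3y) lie at the top, and Myh6 and Ttn are low although they are highly expressed.

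The largest SDs belonged to genes of atrial muscle and to the sex-linked genes given above. Of 14 atrial markers 13 were tested and 5 were called variable, with a list median SD of 0.69 against 0.25 for all genes. Myl7 (SD 4.78), Sln (3.88), Myl4 (3.51), the myosin binding protein H-like gene Mybphl (3.09) and the secreted Dkk3 (2.19) were high in libraries 1 and 5, intermediate in library 2 and lowest in libraries 3 and 4. Mybphl stood at 56.3, 17.0, 0.393, 0.170 and 44.2 rescaled CPM and Dkk3 at 81.6, 24.2, 5.37, 3.40 and 114. Not all atrial markers followed, since Bmp10 was at 0 in all 5 libraries. The orphan receptor Nr2f2 (21.5, 24.7, 22.5, 15.3 and 20.9) and the amidating enzyme Pam (275, 176, 230.0, 161 and 198) moved less. Of the 13 tested, 3 were highest in library 3 and 3 were lowest in library 5. The connexin Gja5 was lowest in library 5, at 8.89. The summed level of the list was 4101, 2371, 3139.8, 1580.5 and 3066, in which Nppa weighs most.

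Other genes moved with the same libraries. Of 9 adipocyte markers 4 were tested and 2 called. Adipsin (Cfd) stood at 37.2, 4.12, 1.31, 0.340 and 74.3 and carbonic anhydrase 3 (Car3) at 20.1, 2.67, 1.05, 0.849 and 30.6. Both were highest in libraries 5 and 1, whereas the lipase Lipe (199.7, 207, 184, 204 and 199.6) was level. Of 9 conduction system markers 5 were tested and 2 called, again highest in libraries 1 and 5. The calcium channel subunit Cacna2d2 was at 17.5, 1.45, 1.44, 1.19 and 16.5 and the cell adhesion gene Cntn2 at 51.7, 4.12, 15.4, 20.2 and 86.8. The conduction factors Tbx3 (66.6, 46.7, 49.2, 45.2 and 41.9) and Irx3 (22.1, 20.9, 20.3, 17.1 and 20.1) were steady. Secreted factors were among them. The Wnt inhibitor Sfrp5 was at 29.7, 0.727, 2.62, 1.19 and 37.7, and a second one, Wif1, at 12.9, 0.970, 1.05, 1.36 and 21.2. The Wnt ligand gene Wnt9b was at 11.4, 2.79, 0.916, 1.36 and 15.7. The proteoglycan gene Fmod stood at 55.0, 12.7, 3.01, 1.36 and 44.2, the glucagon receptor Gcgr at 11.0, 1.82, 0, 1.87 and 24.1 and the matrix gene Cilp2 at 20.2, 5.09, 1.83, 1.02 and 23.3. Libraries 1 and 5 lay above the other 3 for each of these, and also for Cpne5 (12.0, 0.242, 0.393, 1.19 and 23.0) and Lmntd1 (14.2, 0.970, 1.18, 1.70 and 23.0). Without library 5, none of the 5 tested sex-linked genes kept an SD of 1 or more. All other genes called in this and the previous paragraph did so over any 4 libraries, with scaling and filter as before. Whether these genes share a source with the atrial transcripts was not tested.

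Ventricular contractile and metabolic genes ran the opposite way, with smaller differences. The 11 tested ventricular markers stood, as a mean log2 deviation from each gene's own mean, at -0.72, -0.12, 0.54, 0.66 and -0.36. The 37 nuclear genes of respiratory complex I stood at -0.72, -0.25, 0.72, 0.64 and -0.39, with library 3 or 4 highest for all 37 and library 1 lowest for 34. The citric acid cycle list (-0.65, -0.22, 0.46, 0.60 and -0.19) and the contractile filament and Z-disc list (-0.50, -0.19, 0.61, 0.46 and -0.38) were also lowest in library 1. Libraries 3 and 4 were above libraries 1, 2 and 5 in each of these lists, and no member of the 4 lists was called variable. Their median SDs were nonetheless 0.67, 0.65, 0.51 and 0.62 in the order given, against 0.25 for all genes. For the light chain gene Myl3, with the largest spread among ventricular markers (SD 0.98), values were 1681, 3772, 7962, 7774 and 2641. The complex I subunit Ndufab1 was at 159, 246, 514, 489 and 164, the succinyl-CoA ligase subunit Suclg1 at 122, 192, 398, 443 and 179 and the oxidase subunit Cox5a at 242, 372, 972, 918 and 316. The ribosome of mitochondria followed too (-0.51, -0.21, 0.49, 0.41 and -0.19, 78 genes), as did glycolysis (-0.52, -0.23, 0.43, 0.47 and -0.15, 17 genes).

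Transcript length moved with these results. Tested protein coding genes of at most 1845 bases had a median deviation of -0.17, -0.15, 0.16, 0.12 and 0.02, and those of 5238 bases or more of 0.09, 0.09, -0.05, -0.02 and -0.09. The complex I genes have a median length of 971 bases. After subtraction of the median of each length class, a setting added after the data were seen, the complex I list stood at -0.56, -0.13, 0.58, 0.53 and -0.42 and the citric acid cycle list at -0.57, -0.17, 0.40, 0.55 and -0.21. Ttn, a very long gene of the same sarcomere, differed little, at 3185, 3187, 3806, 3814 and 3342. Myh6, with a transcript of 6113 bases, differed more, at 17079.9, 21905, 28620.2, 34499 and 23262. Both were highest in libraries 3 and 4. The haemoglobin genes also followed the order of the ventricular genes, with Hbb-bs at 153, 273, 411, 501 and 184.

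**Figure D4:**
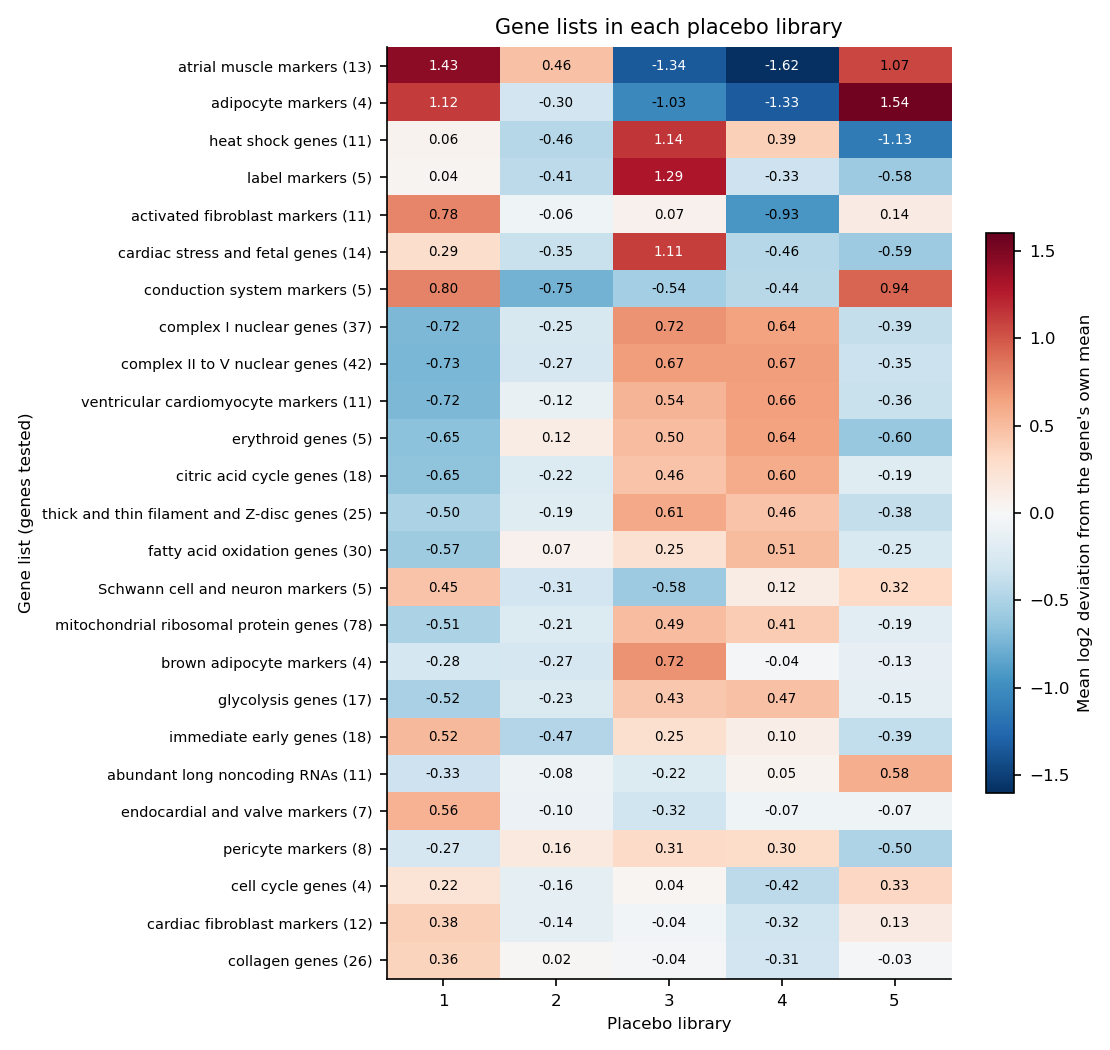
Mean log2 deviation from each gene's own mean in the 5 placebo libraries for the 25 gene lists with the widest range, among lists with at least 4 tested genes, apart from the sex-linked list (number of genes tested in brackets). Red is above and blue below the gene's mean. Atrial and adipocyte lists oppose the ventricular and respiratory lists, and heat shock and stress lists are highest in library 3.

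Cardiac stress genes were set apart in library 3. Of 18 matched stress and fetal genes 14 were tested, library 3 was the highest for 12 of them, and Acta1 (SD 1.59) and Nppb (1.22) were called variable. Over the other 4 libraries their SDs were 0.41 and 0.61. The actin-binding repeat gene Xirp1 was at 177, 111, 512, 193 and 89.2, its relative Xirp2 at 581, 350.0, 1117, 307 and 291, and the stretch gene Ankrd1 at 837, 709, 1549, 409 and 543. The stress hormone Gdf15 stood at 14.7, 7.15, 27.6, 6.11 and 5.49 and the calcineurin regulator Rcan1 at 154, 75.8, 322, 107 and 62.3. Each of these 5 was highest in library 3, at 1.85 to 2.66 times the next library. Fhl1 (80.9, 80.6, 129, 95.2 and 93.1) and Lgals3 (16.9, 14.7, 17.9, 12.4 and 14.6) differed little. The PGC-1 coactivator gene Ppargc1a was also highest in library 3, at 18.3, 18.1, 61.8, 25.3 and 13.9.

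Heat shock genes had the same highest library. All 11 listed genes were tested, all 11 were highest in library 3, 9 were lowest in library 5, and 3 were called variable. The stress-inducible HSP70 gene Hspa1a stood at 40.1, 14.3, 138, 43.0 and 10.3 and its neighbour Hspa1b at 38.0, 15.4, 125, 39.2 and 4.60. Libraries 3 and 5 bounded both genes, and as they are near-identical copies their reads may be split between them. The HSP110 gene Hsph1 was at 87.5, 61.2, 201, 99.8 and 23.5, the small heat shock protein gene Hspb1 at 641, 556, 1812, 1031 and 289 and the mitochondrial chaperonin Hspe1 at 41.5, 44.4, 145, 85.0 and 38.7. The list deviated by 0.06, -0.46, 1.14, 0.39 and -1.13, so that libraries 3 and 5 were at the ends with library 4 second. Without library 3 the SD of Hsph1 was 0.93 and without library 5 it was 0.72, so that its call rests on either. Dnajb1 (57.3, 31.2, 58.0, 49.4 and 32.2) and Bag3 (205, 161, 288, 279.8 and 168) moved least.

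The promoter sequences of 2 of these genes are shown because the group moved together. Capitals mark GAANNTTC, a pair of facing heat shock element units, searched on both strands of the 250 bases before the start (RefSeq, GRCm38.p6).
Hspa1a (chr17:34972157-34972406, minus strand): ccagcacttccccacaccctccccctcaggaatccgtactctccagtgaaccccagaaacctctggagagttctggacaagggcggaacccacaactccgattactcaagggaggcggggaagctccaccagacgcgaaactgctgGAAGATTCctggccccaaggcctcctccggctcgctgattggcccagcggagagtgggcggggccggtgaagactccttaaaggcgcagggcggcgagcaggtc
Hspb1 (chr5:135887669-135887918, plus strand): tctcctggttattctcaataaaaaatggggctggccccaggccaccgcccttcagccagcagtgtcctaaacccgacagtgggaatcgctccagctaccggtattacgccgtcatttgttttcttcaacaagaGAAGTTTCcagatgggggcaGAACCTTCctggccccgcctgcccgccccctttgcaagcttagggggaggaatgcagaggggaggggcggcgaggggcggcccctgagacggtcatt
Hspa1a holds 1 match, which begins 104 bases before the start, and Hspb1 holds 2, which begin 117 and 97 bases before it. Of the 9 listed heat shock genes with a promoter in the table, 5 hold the motif (Hspa1a, Hspa1b, Hspb1, Hspd1 and Hspe1), and 6.69% of all 32851 windows do. A gene was counted if any of its windows held the motif, whereas the percentage is per window, so the 2 shares are not like for like. These letters describe the window and show no binding.

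Clock genes set library 5 apart. All 16 were tested, and library 5 was the highest for 9 and the lowest for 2. Dbp, an output gene of the clock, was at 33.5, 72.4, 30.2, 55.0 and 435 rescaled CPM, and was the only one called variable (SD 1.55). The repressor gene Nr1d1 stood at 117, 145, 125, 181 and 328 and the period gene Per3 at 38.5, 67.3, 28.0, 46.9 and 105, likewise highest in library 5. Arntl, which encodes the activator BMAL1, was at 39.5, 30.6, 35.9, 28.9 and 11.2 and its partner Npas2 at 12.4, 9.58, 10.1, 9.51 and 2.88, both lowest in library 5. Nfil3, a repressor that binds the same sites as DBP, was at 29.0, 18.7, 48.7, 35.8 and 3.92, also lowest there, and was picked after its values were seen. Clock itself was steady (59.6, 53.8, 45.3, 42.8 and 45.0). Without library 5 the SD of Dbp was 0.59 and that of Nfil3 0.57. The hour of tissue collection is not given in the labels used here, and library 5 also has the other sex-linked pattern and the smallest nuclear share. These 3 features of library 5 cannot be told apart here.

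**Figure D5:**
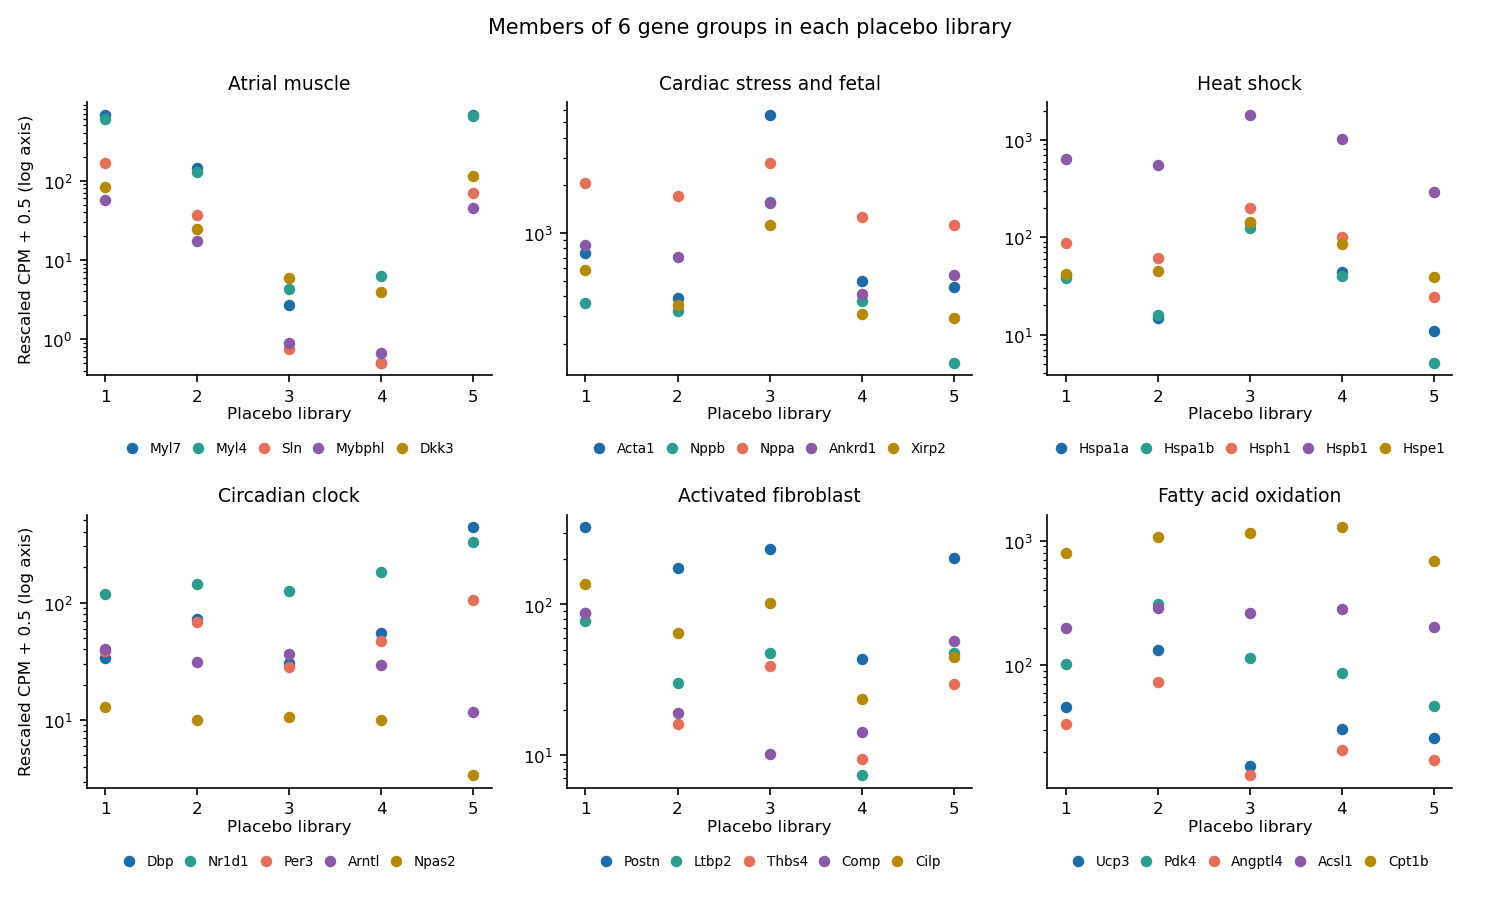
Rescaled CPM plus 0.5 on a log axis in each of the 5 placebo libraries for 5 members of each of 6 gene groups. Atrial genes are high in libraries 1 and 5, stress and heat shock genes in library 3, Dbp in library 5 and Ucp3, Pdk4 and Angptl4 in library 2, while activated fibroblast genes other than Comp are lowest in library 4.

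Genes of activated fibroblasts were mostly lowest in library 4. Of 11 tested, 5 were called variable, the median SD was 0.72, and library 4 was the lowest for 7 and library 1 the highest for 7. Periostin (Postn), a matrix protein of injury, stood at 325, 173, 233, 43.1 and 204 and the TGF-beta binding protein gene Ltbp2 at 77.1, 29.7, 47.1, 6.79 and 47.3. Thrombospondin 4 (Thbs4) was at 87.6, 15.6, 38.6, 8.83 and 29.3 and the matrix gene Cilp at 136, 63.9, 102, 22.9 and 43.9. All 4 had their lowest value in library 4 and their highest in library 1. Over the libraries other than 4, the SDs of Postn (0.38), Ltbp2 (0.56) and Cilp (0.72) were below 1, and without library 1 those of Thbs4 (0.93) and Cilp (0.90). The cartilage matrix gene Comp (86.8, 18.4, 9.56, 13.6 and 56.5) was lowest in library 3 instead. Smooth muscle Acta2, also on this list, ran the other way, highest in library 4 and lowest in library 1. None of 12 resting fibroblast genes was called, but here too library 4 was the lowest for 7 and library 1 the highest for 7. The collagen gene Col1a1 was at 254, 145, 177, 107 and 173 and its partner Col1a2 at 247, 149, 151, 103 and 156. Both had libraries 1 and 4 at the ends. Fibronectin (Fn1) stood at 136, 128, 98.7, 80.8 and 97.1 and the fibroblast receptor Pdgfra at 58.2, 46.7, 47.7, 50.1 and 39.5. Among 26 tested collagen genes none was called. Library 4 was also the one with the high Gm42418, and the mitochondrial leucyl-tRNA synthetase gene Lars2 (76.2, 53.2, 100.2, 379.6 and 139), known to attract reads of ribosomal RNA, was highest in it and picked after its values were seen. Without library 4 the SD of Lars2 was 0.59 and that of Gm42418 0.61.

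Fatty acid oxidation genes held 2 of 30 called, one of them the mitochondrial uncoupler Ucp3 (45.3, 131, 14.8, 30.05 and 25.4). Pdk4, the kinase that shuts pyruvate dehydrogenase when fat is burned, was at 102, 309, 113, 86.1 and 46.6 and the lipase inhibitor Angptl4 at 32.9, 72.1, 12.4, 20.4 and 16.7. Ucp3, Pdk4 and Angptl4 were highest in library 2, at 2.20 to 2.90 times the next library. The list as a whole went otherwise, at a mean deviation of -0.57, 0.07, 0.25, 0.51 and -0.25. Library 4 was the highest for 21 of the 30 genes and library 2 for 4, and library 1 was the lowest for 23. Without library 2 the SD of Ucp3 was 0.65. Pdk2, the kinase with the larger share of its family (66.6% ± 14.5), was overtaken by Pdk4 in library 2 only. The acyl-CoA synthetase gene Acsl1 (199, 287, 264, 279.6 and 200.1) and the fatty acid carrier Cd36 (2015, 1994, 1494, 2008 and 1476) were level.

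Single genes stood out in other ways. Cyp26b1, which degrades retinoic acid, was at 11.6, 199, 6.15, 19.7 and 13.6, and Cyp1a1, a target of the aryl hydrocarbon receptor, at 6.81, 53.0, 3.01, 31.1 and 1.31, the first high in library 2 and the second in libraries 2 and 4. The potassium channel gene Kcnd1 was at 4.02, 124, 6.55, 6.11 and 3.40 and its neighbour on the X chromosome, Gripap1, at 80.8, 8.12, 79.3, 75.2 and 68.0. These genes lie 1721 bases apart on the same strand, and in library 2 Kcnd1 was high where Gripap1 was low. Over the other 4 libraries the SD of Kcnd1 was 0.42 and that of Cyp26b1 0.67. Tmem254c, a gene of a near-identical cluster, was at 6.42, 9.24, 5.00, 0.0475 and 14.6, and its SD without library 4 was 0.63. Zbtb16, known as a glucocorticoid-induced factor, was at 12.8, 3.52, 27.4, 33.4 and 3.14, highest in libraries 4 and 3. Fkbp5 (26.5, 11.9, 68.7, 69.4 and 20.1), also known as glucocorticoid-induced, and Cdkn1a (151, 114, 345, 335 and 63.6), the p21 inhibitor of the cell cycle, had their highest values in the same 2 libraries and were picked after their values were seen. Pagr1a (0, 8.22, 0, 12.1 and 84.6) overlaps the unnamed gene Gm42742 over 2302 bases of chromosome 7 on the same strand, and that gene was at 84.7, 84.0, 88.5, 74.0 and 4.13, so the division of reads between them is uncertain.

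Immune and vascular lists were read in the same way. No member of the endothelial (12 tested), macrophage (9), pericyte (8) or interferon-stimulated (24) lists was called. Their median SDs were 0.25, 0.35, 0.49 and 0.29, against 0.25 for all genes, so none of these lists was quieter than genes at large. With 0.958% of all genes called, lists this short would seldom hold a call. Kdr, the receptor of vascular growth factor, was the most variable endothelial marker with Egfl7, at 961, 792, 444, 689.6 and 495. The pericyte genes Rgs5 (561, 859, 1074, 1014 and 439.7) and Notch3 (78.2, 111, 103, 108 and 42.4) were lowest in library 5. T cell and natural killer markers summed to 4.19 to 7.59 rescaled CPM, and none reached the filter. The neutrophil receptor Csf3r (12.7, 16.5, 14.9, 11.4 and 1.83) was low in library 5 only, and its SD over the other 4 was 0.23. Immediate early genes, which respond within minutes to handling as well as to signals, had 3 of 18 called, and library 2 or 5 was the lowest for 17 of the 18. The transcription factor genes Atf3 (24.8, 8.73, 39.4, 17.8 and 4.45), Nr4a3 (8.15, 3.64, 19.9, 13.6 and 2.35) and Fos (25.6, 3.15, 8.51, 16.3 and 10.7) were the 3. Their SDs fell below 1 without library 5 for Atf3 (0.89) and Nr4a3 (0.99), and without library 2 (0.68) or 1 (0.93) for Fos. Ribosomal protein genes of the cytosol were lowest in library 2 for 70 of 78 and highest in library 5 for 56, at a deviation of only -0.22, -0.34, 0.15, 0.10 and 0.31.

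Among 4178 genes with a mean of at least 50 rescaled CPM, the least variable was Cnot3, of the deadenylase complex that shortens poly(A) tails, at 65.1, 65.2, 66.8, 66.7 and 66.7 (SD 0.019). The X-linked histone demethylase gene Kdm5c (59.6, 57.3, 58.5, 59.1 and 58.9), the adaptor Sh2b1 (104, 102, 101, 105 and 101) and the ubiquitin ligase gene Rnf14 (94.2, 95.8, 92.8, 97.4 and 95.0) were among the next 4. Kdm5c was level although library 5 differed from the others in Xist. Among genes of heart muscle, the cardiac factor Gata4 (SD 0.10) was the steadiest of the listed transcription factors, and the pericyte receptor Pdgfrb (171, 163, 162, 158 and 149.9) was the steadiest of its own.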

How the data were processed

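RNA was sequenced from poly(A)-selected, strand-specific libraries, per the labels' protocols. The authors deposited CPM (read counts scaled to a common library total), and the placebo columns all have the same sum. The series' design text names STAR and RSEM for alignment and counting, while the submitters' processing notes list cutadapt 1.9, HISAT2 2.0.4, StringTie 1.3.4d, DESeq2 and a human genome build, with no role given. Which of these made the table is not settled here. The mouse gene identifiers were matched to GENCODE on GRCm38 (45143 of 45706, 98.77%).

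Depth was taken from the most common low CPM value, read as the worth of 1 read. Between 90.8% and 93.3% of the low nonzero values per library were whole reads at that worth. This was too few for a test on counts, so no count test was run. From the deposited CPM, 37 mitochondrial genes and 7 chromosome 1 genes were removed, the latter chosen as those with 50% or more of their 31-mers also present in mitochondrial DNA; reads of the 2 sets cannot be told apart. The remainder was brought back to the deposited total and divided by a median ratio to give rescaled CPM. Genes with a mean of at least 5 were tested, spread was the SD of log2(rescaled CPM + 0.5) over 5 libraries, and an SD of at least 1 was called variable. This is a size, not a test. Low genes pass more easily through 1 high library, and the pseudocount of 0.5 narrows their spread. Family members were compared per kb of the longest annotated transcript, so a gene expressed mainly as a shorter transcript is understated. The labels give the placebo group, and libraries carry the numbers of their titles. Members and gene lists were chosen with earlier results of these data known.

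Genes named are the 25 highest by rescaled CPM and per kb, the first 2 members of each family, all members of the label markers' families, the 30 most variable and 15 least variable named protein coding genes, and from each list up to 4 members of large and 2 of small SD. Some genes and families that meet this rule are not reported here. Genes outside it are said to be picked after their values were seen, or stand as a member of a family or list described. Analyses used Python 3.11.15, numpy 2.4.6, pandas 2.3.3 and scipy 1.17.1. The spread measure was tested on simulated data. Alternatives were other pseudocounts, scalings, filters, lengths and removals, and leaving out each library.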

Additional observations from a re-analysis of the deposited data

Results flagged for a closer look

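In each case below 1 of the 5 libraries lay apart from the other 4 by more than Dixon's 95% critical value for 5 samples allows. Of 216 measures checked (genes, family ratios and shares of reads), 17 did so, 12 of them in library 5. Many of these genes were named for their large spread between the same libraries, and several move together. The count therefore cannot be set against a chance rate. The other 4 libraries' values stand in the report for most of these genes.

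In library 5 the sex-linked genes stood apart, with Xist at 379 rescaled CPM and the Y-linked Ddx3y, Eif2s3y, Kdm5d and Uty at 0. The clock activator genes Arntl (11.2) and Npas2 (2.88) were low in the same library. So were the neutrophil receptor Csf3r (1.83), the calcium pump Atp2b1 (25.9 against 44.4 in library 3), the connexin Gja5 (8.89) and the unnamed gene Gm42742 (4.13). The fast troponin C gene Tnnc2 was at 0 there, which allows up to 0.785. It held only 0.0237% of troponin C on average, a level of few reads. In library 3 the skeletal actin Acta1 was high, at 5582, and the endothelial factor Gata2 low, at 72.5 against 84.8 to 90.3. In library 2 the potassium channel Kcnd1 was high (124) and its neighbour Gripap1 low (8.12). In library 4 the fatty acid sensor Ppara was high, at 2.55, a level of few reads.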

How the results depend on the processing

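The number of variable genes, 107, followed the filter and the scale. It was 287 with a mean of at least 1, 47 with a mean of at least 20, 327 with no filter, 278 on the deposited CPM (which kept 52 of the 107) and 224 when a log2 range of 2 between the highest and lowest library replaced the SD. Leaving out each library in turn gave 79 to 145. Under 9 other settings, among them pseudocounts of 0.1 and 2 and the removal of copies of mitochondrial genes on every chromosome, it lay between 73 and 117. The mean share of mitochondrial and copied reads, 62.5%, is 46.8% for mitochondrial genes alone. Of 621 values of 69 family ratios recomputed under alternatives, 563 moved by less than the SD of the ratio, 48 moved by more and 10, in 8 ratios, changed sign. The log2 ratios without division by length were -0.0707 for Camk2g to Camk2d, -0.185 for Atp1b3 to Atp1b1, -0.778 for Ckmt2 to Ckm, -0.419 for Vdac3 to Vdac2 and -0.117 for Pparg to Ppard. With the length of all exons they were -0.168 for Itpr1 to Itpr3, -0.939 for Fabp4 to Fabp3 and -0.603 for Vdac3 to Vdac2. The ratio of Des to Vim was -0.203 without replicate 3 and -0.202 without replicate 4, and over all omissions of a replicate it ranged from -0.203 to 0.253. The length used sets the values without division by length and with all exons by construction. Those of Des to Vim follow from which libraries were averaged. Other causes of change were not tested. The correction for transcript length and the wider removal of copies were added after the data were seen. No paired analysis was possible because only 1 group was analysed. Library 5, with 3622404 nuclear reads, sets the depth limit for genes near 0.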

Other observations

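Lists outside the comparisons above are given as values, with no explanation. Of 10 tested major histocompatibility class I genes and 6 of class II none was called variable, and class II had the lowest median SD of all lists (0.16). The proteasome list (37 tested, none called) had a median SD of 0.26. Of 7 tested endocardial and valve markers 1 was called, at a list median SD of 0.64, highest in library 1 for 4 of the 7. The called gene is Postn, which is also on the activated fibroblast list and was counted there. Erythroid genes summed to 443, 797, 1134, 1277 and 476 rescaled CPM, with library 4 the highest for all 5 tested.

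Pseudogenes of mitochondrial sequence on chromosome 2 were left in the nuclear set by the rule on chromosome 1 copies. One of them, Gm13340, stood at 26.4, 700.3, 914, 1342 and 2972 rescaled CPM, lowest in library 1 and highest in library 5. The secreted enzyme gene Ptgds, picked after its values were seen, was at 124, 214, 844, 481 and 267, with library 3 highest.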
